A study of Mus musculus with 9 samples.

Results

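Kidneys of Col4a3 knockout mice treated with antimiR-21, which inhibits the microRNA miR-21, were compared with kidneys of untreated wild type mice, across all expressed genes. The members were chosen by their titles alone: 3 libraries titled as knockout with antimiR-21 and 3 titled as wild type, 6 of the 9 libraries of the series. The remaining 3 libraries, from knockout mice given PBS, the carrier solution, entered the same statistical fit and are given for comparison. All 9 libraries were made from whole kidney RNA of mice of strain 129X1/SvJ at 9 weeks of age. The labels describe the wild type samples as having no treatment, so the comparison joins the genotype, the inhibitor and any effect of the handling that goes with treatment. The labels give neither the dose nor the schedule nor the chemistry of the inhibitor. They do not say whether each library is a different mouse, and p-values measure the spread between these samples, part of which may be technical; the wild type libraries came from at least 2 mice, since both sexes are among them.

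The product of Col4a3 is a type IV collagen chain, alpha-3, which joins alpha-4 and alpha-5 in the basement membrane of the kidney's filter. Loss of any of the 3 chains causes Alport syndrome, in which the filter leaks, tubules are injured and lost, and the interstitium between them fills with inflammatory cells and scar matrix. MiR-21 is a microRNA that rises in many injured tissues; it pairs through its seed, the bases near its 5′ end, with sites in messenger RNAs and lowers their level or translation. An inhibitor of this kind is a short synthetic strand that binds the microRNA and keeps it from its targets.

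The mature strands are shown because the inhibitor is directed at the first of them and because its seed defines the target sites searched for here. They are given 5′ to 3′ from RefSeq on the GRCm38.p6 assembly, with the seed (bases 2 to 8) in capitals, and both lie on the minus strand, at chr11:86584120-86584141 for the 5p strand and chr11:86584082-86584103 for the 3p strand.
mmu-miR-21a-5p: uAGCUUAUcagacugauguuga
mmu-miR-21a-3p: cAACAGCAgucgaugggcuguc
A transcript pairs with the 5p seed through the letters ATAAGCT (a 7mer-m8 site), and an adenine after them makes an 8mer site, ATAAGCTA. Of 16 published miR-21 targets, at least 9 held an 8mer in the annotated 3′ UTR and at least 11 held either kind. Sites on a chromosome left out of this listing were not counted. The 4 stretches after this text, on GRCm38, show the 8mer (capitals) in targets often used as readouts of miR-21: Pdcd4, an inhibitor of translation (chr19:53929432-53929439 for the capitals), Spry1, a brake on growth factor signalling (chr3:37643873-37643880), Reck, an inhibitor of matrix metalloproteinases (chr4:43944407-43944414), and Ppara, a nuclear receptor that drives fatty acid oxidation (chr15:85801829-85801836), all on the plus strand. Their levels are given with the other targets.
Pdcd4: tgggtgttctgATAAGCTActttctaagtg
Spry1: taagtgcttaaATAAGCTAtatattaatct
Reck: tacagtttgaaATAAGCTAttaatgtaata
Ppara: agaatagtttgATAAGCTAtcccatcactc

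Library totals ran from 26448275 to 31786624 expected counts. The deposited column names mark WT replicates 1 and 3 with F and WT replicate 2 with M and carry no such mark for the knockout libraries. By summed counts of Y-linked genes, WT replicates 1 and 3 were female (0.83 and 1.42 CPM, the count scaled to a common library size) and WT replicate 2 was male (105.67 CPM), while all 6 knockout libraries were male (100.76 to 120.23 CPM). The deposited file names also carry a library code that is the same for the 3 wild type libraries and 2 PBS libraries, and another for the 3 antimiR-21 libraries and the other PBS library. The labels do not say what it marks. Sex and code therefore move with the groups compared, and the code cannot be told apart from the difference between wild type and antimiR-21 except through the PBS libraries.

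The inhibitor-treated knockout kidney stood apart from wild type mainly through genes that were higher. Of 17333 genes tested, 1165 (6.72%) were higher and 74 (0.427%) lower in the antimiR-21 libraries than in wild type at an adjusted p under 0.05 in edgeR's quasi-likelihood test, so that 94.0% of the calls were higher. By DESeq2 the calls were 1617 and 396, or 80.3% higher. The changes were large: 1056 of the higher and 50 of the lower genes moved by at least 1 on the log2 scale, and the median change of the higher genes was 2.09. The median over all genes was -0.04, and it became 0.11 when libraries were scaled by their totals alone (values of single genes moved by differing amounts). Without any call, the 3 antimiR-21 libraries lay wholly above the 3 wild type libraries for 2539 genes (14.6%) and wholly below them for 1705 (9.84%). In the PBS knockout, tested by edgeR against the same wild type libraries, 2527 genes (14.6%) were higher and 1705 (9.84%) lower at an adjusted p under 0.05. These are calls, to be set beside the 1165 and 74 of antimiR-21 and not beside its non-overlap counts.

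**Figure D1:**
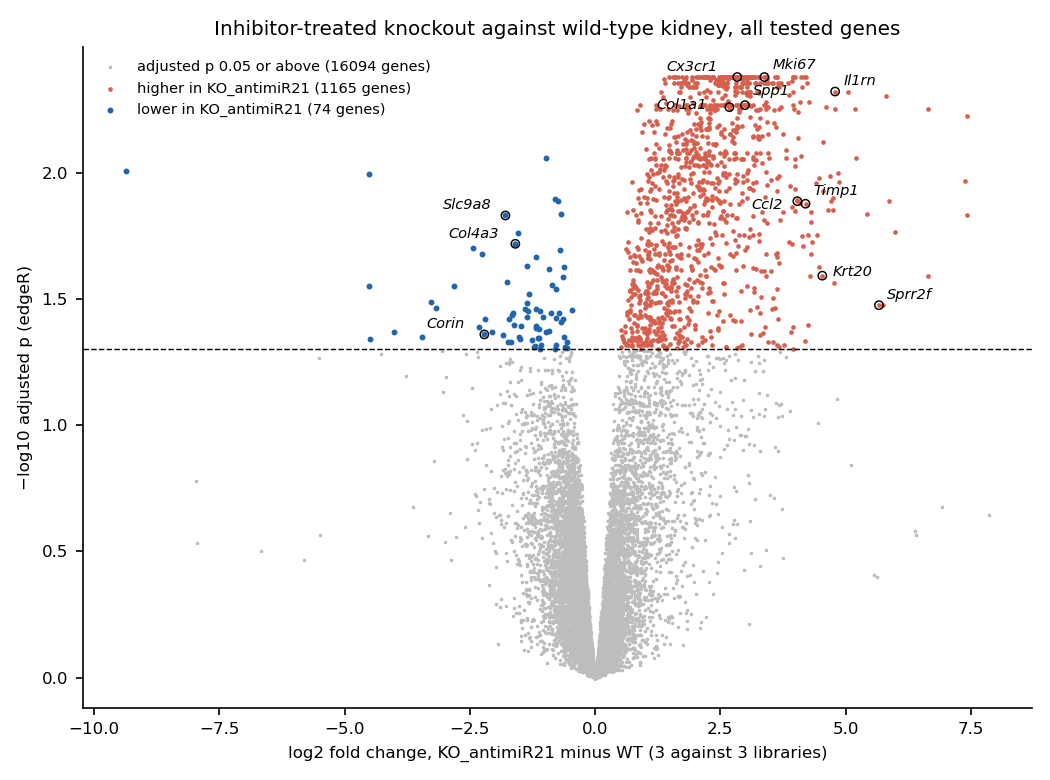
Change of every tested gene in the antimiR-21 knockout against wild type (log2 fold change, horizontal axis) against its adjusted p (−log10, vertical axis; the dashed line is the threshold of 0.05), from 3 libraries a group. Each point is a gene, the 1165 genes called higher and the 74 called lower are coloured, and the called points lie mostly on the right.

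Among the 3 antimiR-21 libraries, replicate 3 was the nearest to wild type. Of the 1165 higher genes, 1059 had their lowest antimiR-21 value in replicate 3, 778 their highest in replicate 2 and 382 their highest in replicate 1. Of the 74 lower genes, 53 were highest in replicate 3 and 52 lowest in replicate 2. Without replicate 3, edgeR called 1467 genes higher and 135 lower, and without replicate 2 it called 678 and 2. Leaving out WT replicate 1 or WT replicate 3 gave 725 and 650 higher genes. The count of lower genes became 17 without antimiR-21 replicate 1, 33, 158 and 16 without WT replicates 1, 2 and 3, and 23 and 24 without PBS replicates 2 and 3. Of 179 called genes that are named or belong to the gene groups described here, 104 were called in each of the 9 fits that left out 1 library, and a gene said to have risen or fallen with no remark on these fits is among the 104. The wild type libraries differed too, and 662 of the 1165 higher genes had their highest wild type value in WT replicate 2, the male library.

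With sex as a covariate edgeR called no gene in either direction, with a lowest adjusted p of 0.0997 (1663 higher and 454 lower at an unadjusted p under 0.05, against 2323 and 1182 without the covariate). With male libraries only, which leaves 1 wild type library, it called none (1730 and 459), and with the library code as a covariate none (1553 and 479). Both female libraries are wild type, so with sex as a covariate each difference from wild type rests on WT replicate 2 alone. The fit with sex as a covariate therefore makes nearly the same comparison as male libraries only, and is not a separate check. Values given elsewhere with sex as a covariate share this limit. Directions and sizes moved less than the calls, but the called genes were chosen for their change in these same libraries. All 3 fits reuse the antimiR-21 libraries and WT replicate 2, so a kept sign is no check on sex or library code. All 1165 higher genes kept a positive change under each of these 3 fits, with medians of 1.86, 1.89 and 2.14, and 1091, 1090 and 1031 of them had an unadjusted p under 0.05. Of the 74 lower genes, 72 kept their sign with sex as a covariate and 41 had an unadjusted p under 0.05, with a median change of -0.89 against -1.24. The called counts given for gene groups are those of the fit without these terms. They are to be set beside the shares that fit called over all 17333 tested genes, 6.72% higher and 0.427% lower. Group counts at an unadjusted p under 0.05 are likewise to be set beside its 2323 higher and 1182 lower genes.

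Col4a3 itself was measured first, as a check of the labels. Its level was 371, 257 and 316 CPM in WT replicates 1 to 3, 104, 70.5 and 138 CPM in the antimiR-21 libraries, and 44.3, 94.2 and 60.2 CPM in the PBS libraries. Every knockout library lay below every wild type library. The difference of antimiR-21 from wild type was -1.59 ± 0.32 (log2, SE) with an edgeR adjusted p of 0.0191, and it lost its call without antimiR-21 replicate 1 or 2 or WT replicate 1 or 3 (highest adjusted p 0.0753). RNA from the locus was thus still counted in the knockout, and the labels do not say which exons are deleted. Its partner chains Col4a4 and Col4a5 did not pass the test (-0.40 ± 0.32 and -0.17 ± 0.23). The widely expressed chains Col4a1 and Col4a2, which form the network of most basement membranes, had higher values: Col4a1 went from 310.4, 213 and 205 CPM to 499, 561 and 327 CPM (0.93 ± 0.25, edgeR adjusted p = 0.0573), and Col4a2 rose by 0.97 ± 0.24 (edgeR adjusted p = 0.0476, lost in 7 of the 9 fits that left out 1 library). In the PBS knockout Col4a1 stood at 832, 1052 and 945 CPM. Of 14 laminin and other basement membrane genes edgeR called none (median 0.17, 3 higher at an unadjusted p under 0.05, DESeq2 1, limma-voom 0), and 5 were called in the PBS knockout. That median was 0.38 with sex as a covariate and -0.01 with the library code.

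**Figure D2:**
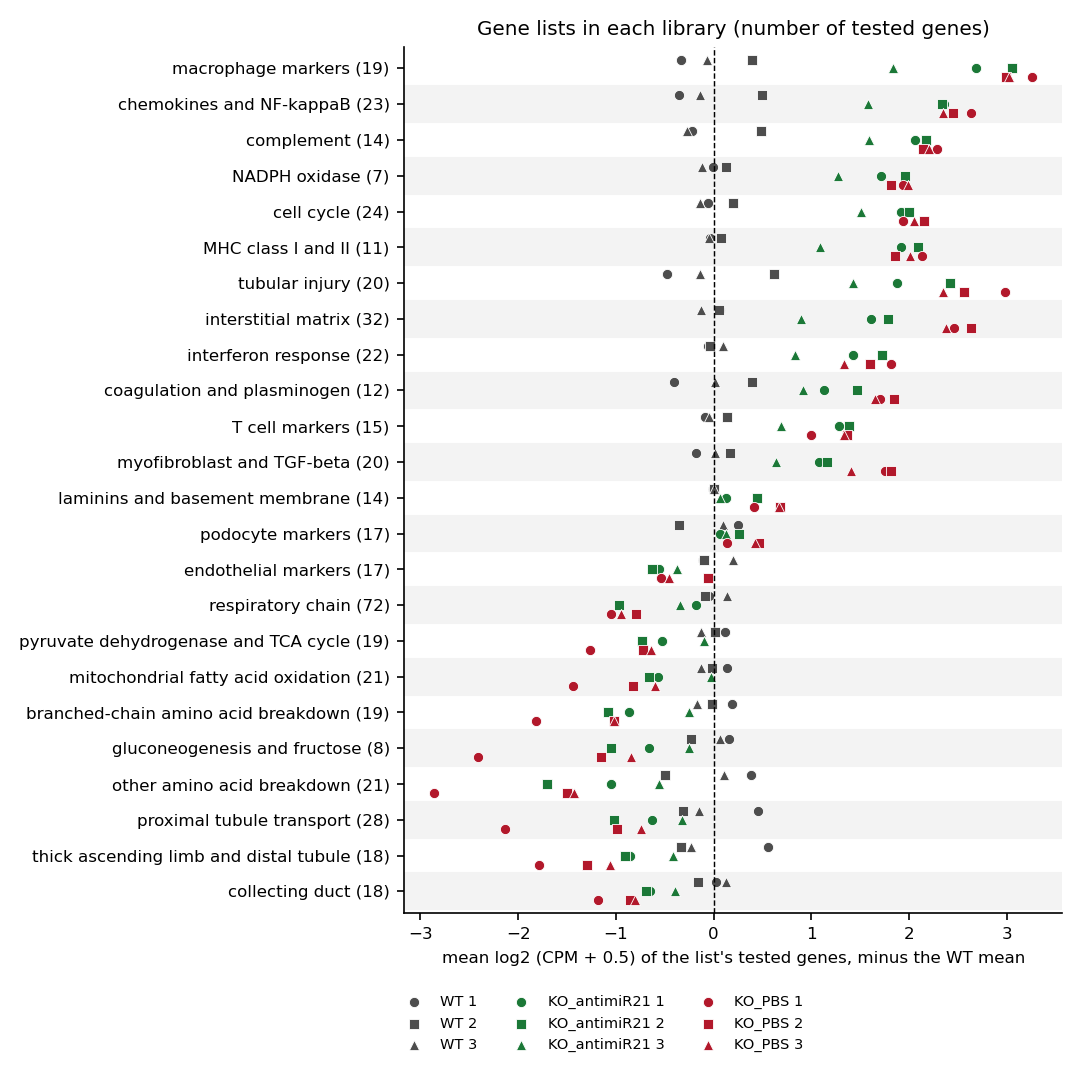
Level of 24 gene groups in each of the 9 libraries, as the mean log2(CPM + 0.5) of the group's genes minus the wild type mean; each point is a library. The macrophage, chemokine, complement, cell cycle and matrix groups lie above wild type in all 3 antimiR-21 libraries, replicate 3 being the lowest for each of these, and the metabolic and tubular groups lie at or below wild type.

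Macrophage genes were higher almost throughout. Of 19 tested markers 17 rose, with a median of 3.04 against -0.04 over all genes, and all 17 were called in each of the 9 fits that left out 1 library. Cx3cr1, the fractalkine receptor of monocytes and tissue macrophages, went from 3.75, 3.29 and 3.06 CPM in wild type to 28.8, 30.5 and 12.8 CPM under antimiR-21. The groups did not overlap, and the rise was 2.84 ± 0.31 (edgeR adjusted p = 0.00417). C1qb, a subunit of the complement starter C1q made by macrophages, went from 13.6, 19 and 16 CPM to 132, 182 and 66.9 CPM, a rise of 2.97 ± 0.36. Mpeg1, which encodes a pore-forming protein of phagocytes, rose by 3.25 ± 0.40. With sex as a covariate the median of the markers was 2.61. In whole kidney RNA a larger number of cells of a type and more RNA per cell cannot be told apart.

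Both markers that did not pass the test overlapped between the groups. Csf1r, the receptor for the macrophage growth factor CSF-1, was at 124, 132 and 148 CPM in wild type and 157, 141 and 127 CPM under antimiR-21 (0.08 ± 0.13). Cd163, a scavenger receptor for haemoglobin carried by a subset of resident macrophages, was at 0.422, 0.681 and 0.764 CPM in wild type, 0.504, 0.676 and 0.294 CPM under antimiR-21, and 2.82, 1.73 and 2.27 CPM in the PBS knockout. The antimiR-21 values thus overlapped wild type, while the 3 PBS values lay above all 6 others. The difference of antimiR-21 from PBS was -2.20 ± 0.39 at an unadjusted p of 0.000338, which does not pass adjustment over all genes. Mrc1, the mannose receptor often read beside Cd163, was between: 2.53, 2.89 and 3.66 CPM in wild type, 14.4, 22 and 7.38 CPM under antimiR-21 and 34.6, 33.3 and 33.3 CPM with PBS, a rise of 2.27 ± 0.35 over wild type.

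Lymphocyte and neutrophil genes were measured at low levels. Of 15 T cell markers 10 rose, with a median of 2.08, but the count fell to 1 without antimiR-21 replicate 1 or 2, to 3 without any 1 of the wild type libraries, and to 5 without PBS replicate 2 or 3. Cd3g, a chain of the T cell receptor complex, went from 0.295, 0.441 and 0.201 CPM to 2.87, 2.09 and 1.07 CPM, a rise of 2.67 ± 0.47 (edgeR adjusted p = 0.0101) that held in all 9 of those fits. Of 7 B and plasma cell markers 1 rose, Cd22, a B cell surface lectin (2.27 ± 0.44, lost without antimiR-21 replicate 2 or WT replicate 3). Of 4 neutrophil markers 1 rose, Csf3r, the receptor for granulocyte colony-stimulating factor (2.35 ± 0.33). Over all tested genes 6.72% were called higher, so 1 call in groups this small is not read as a result about these groups. The summed level of the T cell markers was 12.2 to 14.2 CPM in wild type, 22.5 to 42.1 CPM under antimiR-21 and 30.4 to 40.2 CPM with PBS.

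Chemokines and adhesion molecules, the signals that recruit such cells, were mostly higher. Of 23 chemokine and NF-kappaB genes 16 rose, with a median of 2.64, and between 11 and 17 were called when 1 library was left out. Ccl2, the main attractant of monocytes, went from 0.886, 6.33 and 0.603 CPM to 53.2, 47.2 and 28.4 CPM (4.04 ± 0.75, edgeR adjusted p = 0.0129). WT replicate 2 was the highest wild type library but still far below the lowest antimiR-21 library. Ccl5 and Ccl7, which attract T cells and monocytes, rose by 4.40 ± 0.79 and 4.27 ± 0.61. Icam1, the adhesion molecule that leukocytes grip on vessels and injured tubules, went from 15.9, 23 and 18.5 CPM to 111, 104 and 55.7 CPM (2.24 ± 0.27). Il1rn, the natural antagonist of the interleukin-1 receptor, was among the 12 largest rises of genes whose mean log2 CPM reached 2: 0.253, 1.48 and 0.281 CPM in wild type against 27, 20.1 and 9.33 CPM, or 4.79 ± 0.66 (edgeR adjusted p = 0.00476). The transcription factors Nfkb2 and Relb, of the alternative NF-kappaB arm, rose by 1.27 ± 0.21 and 1.93 ± 0.31. With sex as a covariate the median of the group was 1.97, and the value for Il1rn 3.66.

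Of 14 complement genes 10 rose, with a median of 1.72, and 7 were called in each of the 9 fits that left out 1 library. C3, the central component that is cut to mark surfaces and call phagocytes, went from 62.4, 220.2 and 62.5 CPM to 1559, 3182 and 994 CPM (4.05 ± 0.65, edgeR adjusted p = 0.00729). Its fragment receptor C3ar1 rose by 3.13 ± 0.36. The groups did not overlap for either gene. Of 7 subunits of NADPH oxidase, the enzyme with which phagocytes make superoxide, 5 rose, with a median of 2.47. Of these 5, 4 held their calls in all 9 of those fits. Rac2 went from 3.08, 4.93 and 3.5 CPM to 32.7, 28.7 and 15.9 CPM (2.75 ± 0.29), and Ncf1, a cytosolic subunit, rose by 2.81 ± 0.35. Cyba, the membrane subunit that is also made outside phagocytes, was at 0.03 ± 0.20.

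Antigen presentation and interferon genes were higher as well. All 11 MHC class I and II genes tested rose, with a median of 1.83, and 10 of them were called in each of the 9 fits that left out 1 library. H2-Aa, a class II chain, went from 105, 119 and 110.4 CPM to 768, 798 and 329 CPM (2.50 ± 0.33, edgeR adjusted p = 0.00441), and Ciita, the switch for class II genes, rose by 2.18 ± 0.40. B2m, the light chain of class I, rose by 1.22 ± 0.19. Of 22 interferon response genes 15 rose, with a median of 1.57. Of these, 10 were called in each of the 9 fits that left out 1 library. Iigp1, a GTPase induced by interferon gamma, went from 3.75, 6.73 and 4.5 CPM to 42.7, 59 and 22.7 CPM (3.05 ± 0.37). Mx1, an antiviral GTPase induced by type I interferon, rose by 2.84 ± 0.35, and Irf1, a transcription factor of both arms, by 1.76 ± 0.23. Wild type values of Mx1 were low, from 0.464 to 0.681 CPM, and those of Iigp1 ran from 3.75 to 6.73 CPM. For both genes they lay below all antimiR-21 values. The level of the interferon group was 0.83 in antimiR-21 replicate 3 against 1.42 and 1.72 in replicates 1 and 2 (mean log2 above wild type).

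Cell division genes rose nearly throughout. Of 24 cell cycle genes 21 rose, with a median of 2.05, and the count stayed between 20 and 22 when 1 library was left out. Cdc2a, the older symbol of the mitotic kinase Cdk1, went from 1.48, 1.88 and 1.01 CPM to 14.8, 14 and 9 CPM, a rise of 3.11 ± 0.30 (edgeR adjusted p = 0.00417). Mki67, a marker of cycling cells, went from 4.51, 7.1 and 2.81 CPM to 58.7, 58.7 and 32.6 CPM (3.38 ± 0.36). Cyclin A2 (Ccna2) rose by 2.16 ± 0.21 and Cdc20, an activator of the anaphase-promoting complex, by 2.57 ± 0.25. In the PBS knockout Mki67 stood at 43.1, 53.2 and 51.4 CPM, a range that the antimiR-21 libraries spanned. The brakes on division did not pass the test: of 14 p53 targets and CDK inhibitors edgeR called none (median 0.14, or 0.37 with the library code as a covariate, 2 higher at an unadjusted p under 0.05, DESeq2 1, limma-voom 0). Cdkn1a, the p53-induced inhibitor p21, was at 8.18, 22.4 and 20.4 CPM in wild type, 19, 48 and 23.2 CPM under antimiR-21 and 79, 55.1 and 36.7 CPM with PBS (0.82 ± 0.47 over wild type). Which cells divide cannot be read from whole kidney RNA.

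**Figure D3:**
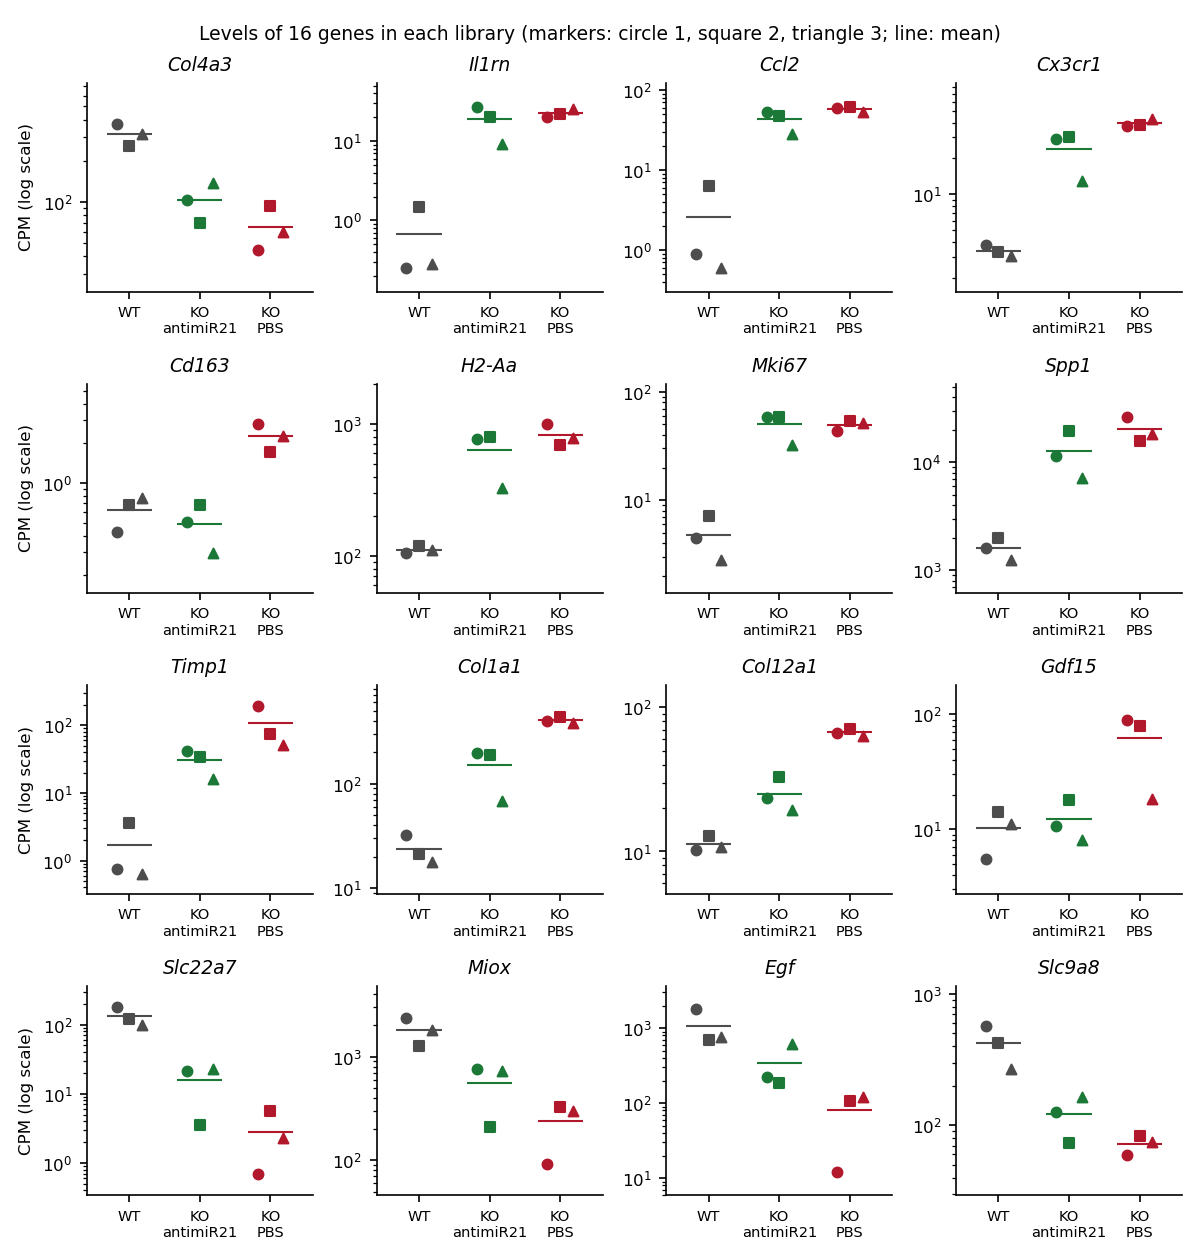
Level of 16 genes in each of the 9 libraries (TMM-scaled CPM, log axis), by group; each point is a library. The 3 antimiR-21 points lie above wild type for Il1rn, Ccl2, Cx3cr1, H2-Aa, Mki67, Spp1, Timp1, Col1a1 and Col12a1, overlapping it for Cd163, and below it for Col4a3, Slc22a7, Miox, Egf and Slc9a8.

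Of 20 tubular injury genes 10 rose, with a median of 1.62, but only 5 were called without WT replicate 1 or WT replicate 3, and 6 without antimiR-21 replicate 1 or 2. Spp1 (osteopontin), secreted by injured tubule cells and macrophages, went from 1594, 1988 and 1236 CPM to 11527, 19564 and 7191 CPM (2.99 ± 0.43, edgeR adjusted p = 0.00539). Vcam1, an adhesion molecule displayed by injured tubule cells that have not recovered, went from 8.73, 28.7 and 6.88 CPM to 247, 355 and 131 CPM (4.05 ± 0.61). Cd44, a hyaluronan receptor that appears on injured epithelium and leukocytes, rose by 3.97 ± 0.59. These 3 held their calls in all 9 fits that left out 1 library. Lcn2, the urinary injury marker NGAL, varied within both groups: 4.98, 64 and 11.4 CPM in wild type and 174, 509.8 and 315 CPM under antimiR-21 (3.63 ± 0.92, edgeR adjusted p = 0.0479, called in 1 of those 9 fits). Havcr1, which encodes the proximal tubule injury marker KIM-1, had higher values without passing the test (2.01 ± 0.56, edgeR adjusted p = 0.0687).

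Gdf15, a stress-induced cytokine, did not pass the test. It was at 5.48, 14.1 and 11.1 CPM in wild type and 10.7, 18 and 8.08 CPM under antimiR-21 (0.26 ± 0.57), whereas the PBS libraries held 89.6, 79.5 and 18.5 CPM. The antimiR-21 libraries thus overlapped wild type, and each PBS library lay above all of them. The difference of antimiR-21 from PBS was -2.35 ± 0.59 at an unadjusted p of 0.00333, which does not pass adjustment over all genes. Epithelial genes were also among those 12 largest rises. Sprr2f, a small proline-rich protein of stressed epithelia, rose by 5.67 ± 1.31 from 0.0422, 0.2 and 0.121 CPM to 3.06, 15 and 1.14 CPM. Krt20, a keratin of injured tubules, rose by 4.53 ± 0.98. Both have large errors, and they lost their calls in 5 and 4 of the 9 fits that left out 1 library.

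Scar matrix genes were higher, with the fibrillar collagens among them. Of 32 interstitial matrix genes 19 rose, with a median of 1.33. The count was 10 without WT replicate 3 and between 14 and 21 without any other 1 library. Col1a1, the main chain of fibrillar collagen, went from 31.8, 21.2 and 17.5 CPM to 195, 188 and 68.2 CPM, a rise of 2.68 ± 0.40 (edgeR adjusted p = 0.00549). Its partner fibrillar collagen Col3a1 rose by 2.49 ± 0.36. Mgp, a calcification inhibitor of the matrix, went from 64.8, 63.7 and 57.4 CPM to 607, 479.8 and 197 CPM (2.79 ± 0.38), Mmp2, a gelatin-cutting protease, rose by 1.93 ± 0.24, and Col5a2, which sets the width of collagen fibrils, by 1.67 ± 0.23. Timp1, an inhibitor of matrix proteases, went from 0.759, 3.61 and 0.643 CPM to 41.8, 34.4 and 16.3 CPM (4.20 ± 0.79, edgeR adjusted p = 0.0133, lost without WT replicate 1 or 3). For each of these genes antimiR-21 replicate 3 was the lowest of its group and still above all 3 wild type libraries.

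The PBS knockout, set against the same wild type libraries, had larger matrix values than the antimiR-21 knockout: 29 of the 32 genes were called and the median was 2.49. Col1a1 stood at 394, 438 and 384 CPM there and Col12a1, a fibril-associated collagen, at 65.8, 71 and 63.6 CPM, against 10.2, 12.7 and 10.8 CPM in wild type and 23.5, 32.6 and 19.4 CPM under antimiR-21. For both genes the 3 groups did not overlap, with antimiR-21 in the middle. In the direct test of antimiR-21 against PBS, the difference was -1.43 ± 0.38 for Col1a1 (unadjusted p = 0.0043) and -1.41 ± 0.19 for Col12a1 (unadjusted p = 4.36e-05). Lox, the enzyme that crosslinks collagen, was at 1.30 ± 0.36 over wild type (edgeR adjusted p = 0.0715) and at -1.69 ± 0.36 against PBS. Over the 32 genes the median difference from PBS was -1.01, and 25 had an unadjusted p under 0.05, but none passed adjustment over all genes. The count over all tested genes is given with the direct test of the 2 knockout groups.

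**Figure D4:**
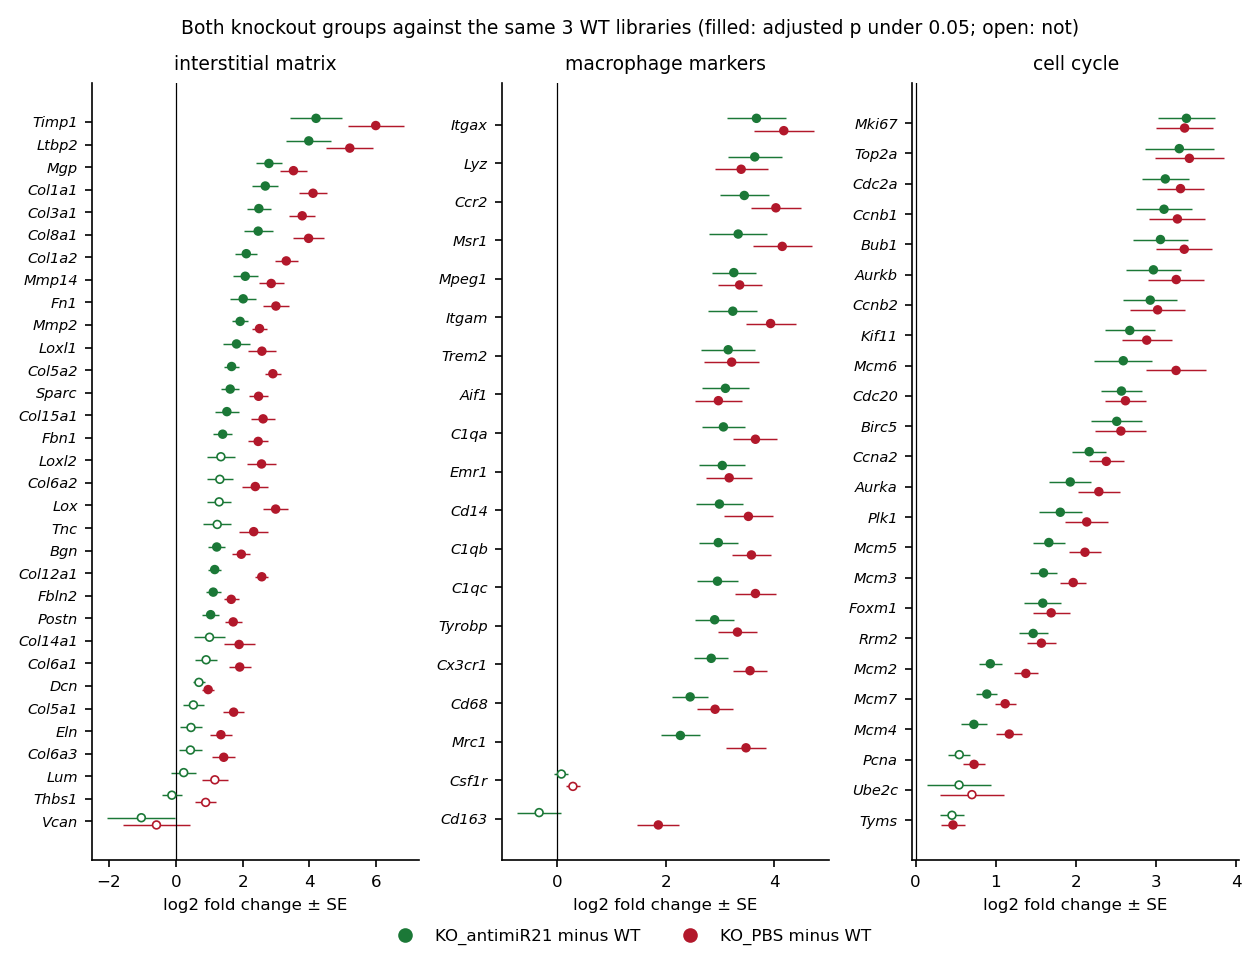
Log2 fold change against wild type, with its SE, of each interstitial matrix, macrophage and cell cycle gene in the antimiR-21 knockout and in the PBS knockout, which share the 3 wild type libraries. The group medians are 1.33 and 2.49 for matrix, 3.04 and 3.48 for macrophage markers, and 2.05 and 2.33 for cell cycle genes.

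Of 20 myofibroblast and TGF-beta genes 8 rose, with a median of 0.95 (1.46 with the library code as a covariate), and 4 or 5 were called without antimiR-21 replicate 2, PBS replicate 2 or any 1 wild type library. Tgfbi, a secreted protein induced by TGF-beta, went from 13.3, 12.3 and 9.41 CPM to 79.5, 95.9 and 39.5 CPM (2.62 ± 0.31, edgeR adjusted p = 0.00417). Pdgfb, a growth factor for fibroblasts and pericytes, rose by 1.59 ± 0.19 and Vim, the mesenchymal filament vimentin, by 1.98 ± 0.32. Acta2, the smooth muscle actin that marks myofibroblasts, did not pass the test: 37, 44.3 and 46.9 CPM in wild type, 89, 64.8 and 47 CPM under antimiR-21 (0.65 ± 0.29), and 161, 200.2 and 101 CPM with PBS. Its value in antimiR-21 replicate 3 lay at the top of the wild type range. Of 12 coagulation and plasminogen genes 7 rose, with a median of 1.06, and 2 were called without WT replicate 1 or 3 and 4 without antimiR-21 replicate 1 or 2 or PBS replicate 2. They included all 3 fibrinogen chains, the clotting protein that the liver secretes and injured kidney also makes: Fgb rose by 3.92 ± 0.50, Fgg by 2.88 ± 0.43 and Fga by 1.87 ± 0.36 (lost without WT replicate 1 or 3). Fgg went from 2.83, 7.26 and 4.5 CPM to 32.8, 52.9 and 22.1 CPM.

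Far fewer genes passed the test on the lower side, and the largest falls were of transcripts that the male wild type library also held at a low level. Xist, which only female cells make at a high level and which the tables list under its RefSeq name, was at 552, 3.97 and 662 CPM in wild type and 0.659, 0.547 and 0.625 CPM under antimiR-21 (-9.37 ± 1.63, and -2.70 with sex as a covariate). BC099526 followed the same libraries, with 26.8, 2.77 and 20 CPM in wild type and 0.853, 0.354 and 0.955 CPM under antimiR-21. For both, WT replicate 2 was the lowest wild type library, and both lost their calls without antimiR-21 replicate 2. Slc9a8, a sodium and proton exchanger of the tubule, had no such order: 570.3, 422 and 267 CPM in wild type against 126, 74 and 164 CPM (-1.79 ± 0.34, edgeR adjusted p = 0.0148, and -1.80 with sex as a covariate). It lost its call without antimiR-21 replicate 1 or 2. Corin, a protease that activates natriuretic peptides, fell by 2.21 ± 0.54 and Acsm1, a mitochondrial acyl-CoA synthetase of the proximal tubule, by 1.66 ± 0.39, with -1.40 and -0.88 when sex was a covariate. These 2 lost their calls in 6 and 8 of the 9 fits that left out 1 library.

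Genes of energy metabolism, which fill the mitochondria-rich tubules, had values below wild type but almost none passed the test. Of 72 respiratory chain genes edgeR called none (21 lower at an unadjusted p under 0.05, DESeq2 3, limma-voom 0). All 72 had negative values, between -0.69 and -0.18, with a median of -0.46 against -0.04 over all genes. Libraries differed: the level of the group relative to wild type was -0.17 and -0.35 in antimiR-21 replicates 1 and 3 and -0.97 in replicate 2, which lay within the PBS range of -1.05 to -0.79. In the PBS knockout 63 of the 72 were called lower, with a median of -0.95. For 19 genes of pyruvate dehydrogenase and the TCA cycle the median was -0.44, and for 21 genes of mitochondrial fatty acid oxidation -0.40. EdgeR, DESeq2 and limma-voom called none of either group (4 and 3 lower by edgeR at an unadjusted p under 0.05). In antimiR-21 replicate 3 both groups were at the wild type level, with -0.09 and -0.02. For 28 peroxisomal genes the median was -0.27 (edgeR called none, 3 at an unadjusted p under 0.05, DESeq2 1, limma-voom 0). With the library code as a covariate these 3 medians were -0.71, -0.84 and -0.77, and with sex as a covariate -0.43, -0.23 and -0.40.

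Breakdown of amino acids, a task of the proximal tubule, had somewhat lower medians. In the branched-chain pathways 1 of 19 genes fell, Mccc2, a subunit of the carboxylase of the leucine pathway (190.1, 138 and 170.3 CPM against 77.6, 53.9 and 105 CPM, -1.08 ± 0.27, edgeR adjusted p = 0.0479, called in 2 of the 9 fits that left out 1 library). All 19 had negative values, with a median of -0.64, and 16 were called lower in the PBS knockout. For 21 genes of other amino acid pathways the median was -0.84, with edgeR calling none (7 lower at an unadjusted p under 0.05, DESeq2 3, limma-voom 0). Bhmt, which remakes methionine from homocysteine, gave the lowest value of that group, -3.78 ± 1.03, but its wild type values (107, 15.2 and 184 CPM) were lowest in the male library; it stood at -1.02 with sex as a covariate. For 8 genes of gluconeogenesis and fructose use the median was -0.79 (edgeR called none, 3 lower at an unadjusted p under 0.05, DESeq2 1, limma-voom 0). For 16 glycolytic genes the median was -0.22 (edgeR called none, 1 higher and 4 lower at an unadjusted p under 0.05, DESeq2 1 and 2, limma-voom 0). With the library code as a covariate the medians of the branched-chain, other amino acid and gluconeogenesis groups were -1.02, -1.49 and -1.61. The code term is set by PBS replicate 3 against PBS replicates 1 and 2. PBS replicate 1 had the lowest level of the PBS libraries for these groups (-1.81, -2.86 and -2.41, mean log2 relative to wild type).

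Markers of the nephron's segments had values mostly below wild type, with few calls. Of 28 proximal tubule transport genes edgeR called none (1 higher and 6 lower at an unadjusted p under 0.05, DESeq2 1 and 2, limma-voom 1 lower), with a median of -0.67 that became -0.35 with sex as a covariate and -1.32 with the library code. Slc22a7, an organic anion transporter, gave the lowest value of the group: 179, 119 and 99.4 CPM in wild type, 21.2, 3.54 and 23 CPM under antimiR-21 (-3.06 ± 0.78, edgeR adjusted p = 0.051) and 0.685, 5.57 and 2.27 CPM with PBS. Miox, the inositol-oxidising enzyme of the proximal tubule, was at 2374, 1273 and 1817 CPM, 751, 208 and 725 CPM, and 92.5, 326 and 301 CPM in the same order (-1.70 ± 0.58 against wild type). Neither gene overlapped wild type, and antimiR-21 replicate 2 was the lowest of its group for both. Slc13a1, a sulfate transporter of the same segment, lay on the other side, with 484, 251 and 194 CPM in wild type and 676, 781 and 612 CPM under antimiR-21 (1.15 ± 0.39, edgeR adjusted p = 0.128).

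For 18 thick ascending limb and distal tubule genes the median was -0.88 (-0.45 with sex as a covariate and -1.32 with the library code). EdgeR called 1 lower, a call that did not hold in all 9 fits that left out 1 library. In its test 8 were lower at an unadjusted p under 0.05. DESeq2 called 7 lower, against 396 of 17333 over all tested genes, and limma-voom called 1. Egf, the growth factor that healthy distal tubules release, was at 1807, 694 and 760.1 CPM in wild type, 223, 188 and 618 CPM under antimiR-21 and 11.9, 108 and 121 CPM with PBS (-1.67 ± 0.80 against wild type). Replicate 3 lay close to the wild type range and the other 2 antimiR-21 libraries well below it. Of 18 collecting duct genes edgeR called none (8 lower at an unadjusted p under 0.05, DESeq2 4, limma-voom 0), with a median of -0.49 that became -0.11 with sex as a covariate.

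Podocyte and endothelial genes mostly did not pass the test, and in whole kidney RNA the endothelial ones are not limited to the filter. Of 17 podocyte markers edgeR called none (4 higher and 1 lower at an unadjusted p under 0.05, DESeq2 2 higher, limma-voom 0), with a median of 0.08 that became 0.73 with sex as a covariate and 0.16 with the library code. Nphs1 (nephrin), the protein of the slit between podocyte feet, was at 36.6, 14 and 38.3 CPM in wild type and 34.9, 27 and 32.4 CPM under antimiR-21 (0.08 ± 0.37), with WT replicate 2 the lowest of the 6 libraries. Of 17 endothelial markers 1 fell, Angpt2, a ligand that loosens vessels: 33.4, 39.8 and 56.4 CPM in wild type against 11.8, 15.1 and 25.4 CPM (-1.31 ± 0.30, edgeR adjusted p = 0.0302, called in 4 of the 9 fits that left out 1 library). The receptor it binds, Tek, was at -0.67 ± 0.17 (edgeR adjusted p = 0.0515), and the group's median was -0.50, against -0.23 with sex as a covariate and -0.19 with the library code.

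The targets of miR-21 were then read against wild type. Of the 16 published targets edgeR called none (4 higher and 1 lower at an unadjusted p under 0.05, DESeq2 3 higher and 1 lower, limma-voom 0), with a median of -0.01 that became 0.16 when libraries were scaled by their totals alone and 0.22 with the library code as a covariate. Pdcd4, whose site is printed above, was at 52.1, 76.6 and 72.8 CPM in wild type and 48.6, 72.8 and 66.1 CPM under antimiR-21 (-0.10 ± 0.19). Spry1 was at 18, 10.8 and 11.1 CPM and 19.1, 19.6 and 11.2 CPM (0.32 ± 0.29), Reck at 11.6, 9.26 and 9.65 CPM and 6.67, 11.2 and 9.63 CPM (-0.15 ± 0.27). All 3 overlapped between the groups. Ppara varied within both, with 49.5, 16 and 14.8 CPM in wild type and 8.72, 38.6 and 29.1 CPM under antimiR-21 (-0.07 ± 0.71). The highest values relative to wild type were those of Fasl, the death ligand (2.34 ± 0.63, edgeR adjusted p = 0.0589, at under 1 CPM in every library), and Tpm1, a tropomyosin of the actin skeleton (0.91 ± 0.24, edgeR adjusted p = 0.0568). The lowest value of the 16 was -1.54. In the PBS knockout 5 of the 16 were called higher and 1 lower, where 14.6% and 9.84% of all tested genes were called.

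The same sites were sought in every 3′ UTR on GRCm38, which was found for 14587 of the 17333 tested genes. An 8mer (ATAAGCTA) was held by 351 of these genes (2.41%) and a 7mer-m8 (ATAAGCT) without an 8mer by 798 (5.47%). The median change against wild type was -0.10 for genes with an 8mer, -0.08 for those with the shorter site alone and -0.03 for the 13438 genes with neither. The share called higher was 5.41%, 4.89% and 7.63% in that order, and 7.42% over all genes searched. The share called lower was 1.14% (4 genes), 0.251% (2 genes) and 0.417% (56 genes), and 0.425% over all. Genes with a site also have longer UTRs, with a median of 2999 bases for the 8mer class against 1065 for genes without one, and UTR length was not held constant. A match gives only the presence of these letters.

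The direct test of the 2 knockout groups bears on all values set side by side. EdgeR called no gene between antimiR-21 and PBS (0.0%), with a lowest adjusted p of 0.706. Of the 17333 tested genes, 1207 had an unadjusted p under 0.05, to be set beside 25 of the 32 interstitial matrix genes. DESeq2 called 7 higher and 12 lower, and limma-voom and limma on the deposited log2 values called none. The median absolute change from wild type over all tested genes was 0.262 in the antimiR-21 knockout and 0.392 in the PBS knockout. A gene called against wild type in only 1 of the knockout groups is therefore not shown to differ between them.

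**Figure D5:**
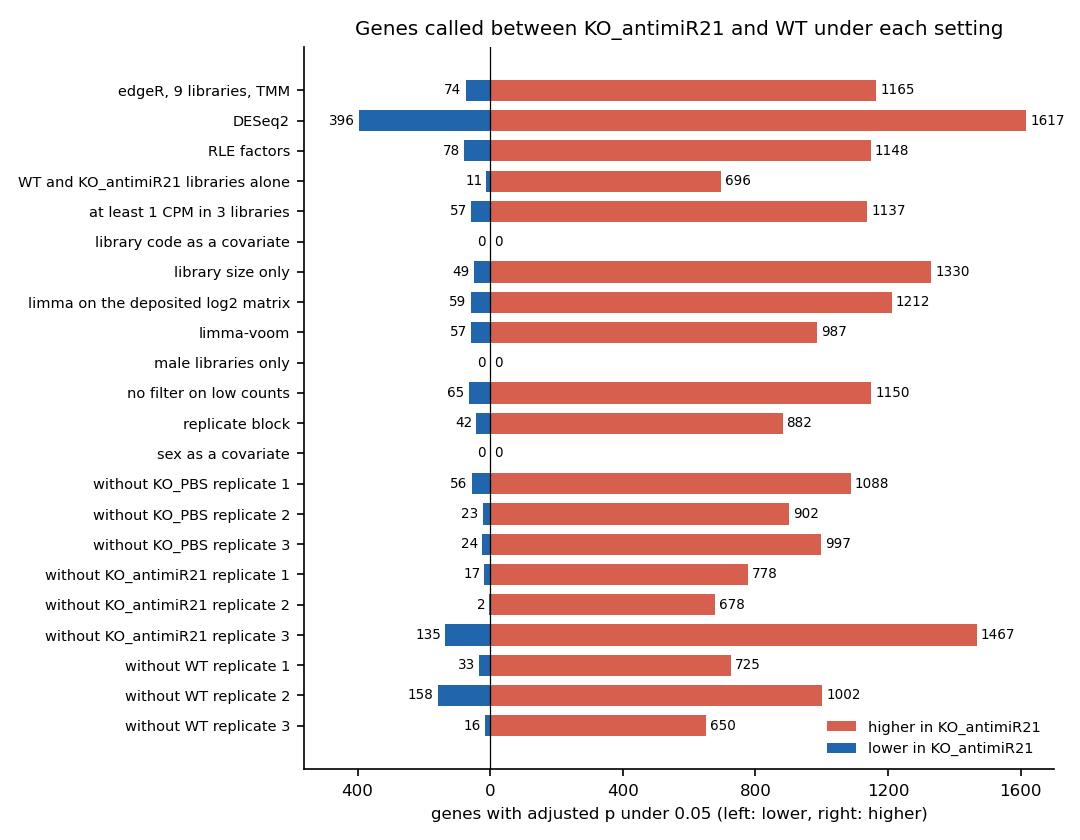
Number of genes called higher and lower in the antimiR-21 knockout against wild type under the reported fit and its 21 alternatives. The counts of higher genes run from 650 to 1617 apart from the fits with sex as a covariate, male libraries only and the library code as a covariate, which call 0.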

How the data were processed

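RNA from whole kidney was sequenced by the submitters in 9 libraries, 3 a group. Reads were processed with Bowtie, RSEM and limma against mm9, per the submitters' processing notes; versions are not given in the sources used here. The deposited expected counts per gene symbol (RSEM estimates) were rounded to whole numbers. The authors also deposited a matrix of log2 values, which was used as an alternative. After a constant offset per library was removed, it departed by at most 5.14e-14 from the log2 CPM recomputed from those counts. Genes were kept by edgeR's filterByExpr (17333 of 22637 symbols), scaled by TMM, and tested with edgeR 4.0.16 (R 4.3.3) by quasi-likelihood in 1 fit of the 9 libraries with 3 group means. P-values were adjusted by Benjamini-Hochberg over all tested genes, at a threshold of 0.05. CPM are scaled by TMM. The SE given with an edgeR change was derived from that test, as the absolute log2 change divided by the square root of its F statistic. Alternatives used DESeq2 1.42.0, limma 3.58.1, other scaling and filters, sex or library code as a covariate, a replicate block, and each library left out. The procedure was tested on simulated data.

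Groups come from the titles. The groups' replicates differed by more than sampling noise, with a chi-square of 31.2 to 139.7 per gene between pairs, so none was counted as the same library. Each row is a symbol, so near-identical copies and overlapping genes cannot be separated. The group lists (45) and tests were chosen with earlier results of these data known. Named were the Col4a3, Col4a4 and Col4a5 chains, the 12 largest changes in each direction among called genes (mean log2 CPM over 9 libraries 2 or more, groups not overlapping), and each list's 3 lowest p; members named for contrast, and other list members named, were chosen after their values were seen. Target sites were searched in the GENCODE annotation's 3′ UTRs of GRCm38, not the authors' build. Some results are not reported here.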

Additional observations from a re-analysis of the deposited data

How the results depend on the processing

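The 1165 higher and 74 lower genes of the antimiR-21 knockout against wild type were recounted under 21 alternatives. Fits with sex as a covariate, male libraries only or the library code as a covariate called 0 in each direction, and the wild type and antimiR-21 libraries alone gave 696 and 11. The counts of higher genes stayed within 1.5 times of 1165 under the other settings that kept all libraries. Lower genes numbered 396 by DESeq2 and 49 with scaling by library totals only. Leaving out 1 library gave 650 to 1467 higher and 2 to 158 lower genes, and without WT replicate 2 the calls were 86.4% higher. With the replicate number as a block the counts were 882 and 42. The numbers only name the samples: deviations of same-numbered wild type and antimiR-21 libraries correlated at -0.305, 0.0136 and -0.258, and no wild type library correlated best with its own number.

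No called gene named in the text changed its sign under any alternative, and the sign changes were among genes near 0 that had not passed the test. Called genes were chosen for their change in these same libraries, so a kept sign is no check on sex or library code. With the library code, Csf1r gave -0.00840, Cyba -0.18, Nphs1 -0.38 and Pdcd4 0.068. With male libraries only, Gdf15 gave -0.17, Ppara 0.70 and Reck 0.018, and with sex as a covariate Gdf15 gave -0.20 and Ppara 0.67. With library totals only, Pdcd4 gave 0.052, Ppara 0.12 and Reck 0.013. Leaving out 1 library gave values from -0.00482 to 0.17 for Csf1r, from -0.21 to 0.19 for Cyba, from -0.23 to 0.048 for Pdcd4, from -0.50 to 0.75 for Ppara, from -0.31 to 0.035 for Reck, from -0.10 to 0.59 for Gdf15 and from -0.23 to 0.30 for Nphs1. The median of type IV collagen chains changed sign with sex as a covariate (-0.34), that of the laminins with the library code (-0.01), and those of podocyte markers without WT replicate 2 (-0.08) and of endoplasmic reticulum stress genes with sex as a covariate (-0.03). That of immediate early genes was -0.02, but 1.23 with the library code and 0.50 from the deposited log2 values. The male kidney genes gave -0.76, but 0.73 from those values and 2.33 without WT replicate 2. The adipocyte markers gave 1.08, but -1.71 without antimiR-21 replicate 3, -0.18 from the deposited values and -0.01 with sex as a covariate. The red blood cell genes gave 1.04, but -0.05 without antimiR-21 replicate 3. Genes under about 1 CPM, such as most T cell markers in wild type and Fasl, rest on few counts, and 3 libraries a group limit the precision of every value.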

Other observations

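Several gene groups outside the main account had 1 called member. Over all tested genes 6.72% were called higher, so 1 call in groups of this size is not read as a result about the group. Of 19 antioxidant genes 1 rose, Hmox1, which breaks down haem (1.17 ± 0.26, lost in 5 of the 9 fits that left out 1 library), with a median of -0.29 for the group. Of 13 stress genes of the endoplasmic reticulum and amino acid supply 1 rose, Trib3, a pseudokinase (1.64 ± 0.36, lost in 5). Of 10 ligands of the EGF receptor 1 rose, Areg (amphiregulin), from 0.127, 0.241 and 0.0402 CPM to 1.12, 2.48 and 0.808 CPM (3.40 ± 0.63, lost without WT replicate 1).

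Of 13 immediate early genes 1 rose, Klf6, a transcription factor of early injury (1.45 ± 0.34, lost in 5 of the 9 fits). The level of this group ran from -1.38 in WT replicate 1 to 0.70 in WT replicate 2, a spread wider than the 0.26 to 0.66 of the antimiR-21 libraries. For 11 renin, angiotensin and endothelin genes edgeR called none (3 higher and 2 lower at an unadjusted p under 0.05, DESeq2 1 and 1, limma-voom 0). Edn1, the vasoconstrictor endothelin-1, had the highest value, with 2.99, 4.97 and 3.06 CPM in wild type and 10.9, 39.9 and 11.5 CPM under antimiR-21 (2.50 ± 0.65, edgeR adjusted p = 0.0546). For 17 metabolic and nephron transcription factors edgeR, DESeq2 and limma-voom called none (2 lower by edgeR at an unadjusted p under 0.05), with a median of -0.25 that became -0.61 with the library code as a covariate.

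Markers of other tissues differed between libraries of a group. The summed level of 4 red blood cell genes was 61.2, 170 and 78.5 CPM in wild type, 47.6, 151 and 440 CPM under antimiR-21 and 4.27, 13.4 and 15.7 CPM with PBS. Adipocyte markers summed to 78.9 and 80.1 CPM in antimiR-21 replicates 1 and 2 and to 584 CPM in replicate 3, the library nearest to wild type in most gene groups, against 132, 266 and 128 CPM in wild type. The part of fat or blood in any result was not tested. Adrenal cortex markers summed to 6.77 to 10.5 CPM in wild type and 6.59 to 6.91 CPM under antimiR-21, and skeletal muscle markers to at most 2.77 CPM in these 6 libraries. Of 10 genes known to be higher in male kidney the level was -1.45, 2.66 and -1.21 in WT replicates 1 to 3 and 0.41, 0.28 and 1.72 under antimiR-21. Of 5 genes known to be higher in female kidney it was 0.75, -0.90 and 0.15 in wild type and -1.20, -1.89 and -0.88 under antimiR-21, with a median change of -1.42 that became 0.08 with sex as a covariate. EdgeR called none of either group (1 higher of the male genes and 3 lower of the female genes at an unadjusted p under 0.05, DESeq2 1 and 2, limma-voom 1 and 1).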
